A study of Homo sapiens with 48 samples.

Results

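The 32 genes described here encode membrane carriers of amino acids, in the plasma membrane, the lysosome and the inner mitochondrial membrane. Each gene was measured by probe sets whose only gene symbol in the platform annotation is that gene, and where a gene had several, the brightest on average stood for it. All 32 genes had such a probe set, out of 19775 genes with one on this array, and 28 of the 32 passed a filter on low values (over log2 4 in at least 3 arrays), out of 11356 genes that passed in all.

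The cells were HK-2, an established line of immortalised epithelial cells from the human kidney's proximal tubule, grown in a defined medium with EGF, hydrocortisone, insulin, transferrin and selenite. They were exposed near confluence to CsA, Fk, Ra or Nnm, short names taken from the labels, which state no doses or full names, and controls received the matching vehicle. The CsA set holds CsA and control at 12 h and 48 h, and its labels carry a laboratory number. The Fk and Ra set holds both compounds with shared controls at 12 h and 48 h, and the Nnm set holds a low and a high dose with shared controls at 24 h and 48 h. Each of the 16 groups had 3 arrays, labelled as biological replicates, giving 48 arrays of 1 cell line. Values are log2 expression values, so a difference of 1 is a 2-fold change, and the number of arrays limits the precision.

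In the proximal tubule, carriers on the luminal side take filtered amino acids back from the urine and others on the basolateral side pass them to the blood. Some work as exchangers, some are driven by sodium or protons, and some need a partner protein to reach the membrane. Cultured cells use an overlapping set to feed protein synthesis, and many cells raise a group of these carriers through the factor ATF4 when amino acids run short or the endoplasmic reticulum is stressed, by way of an amino acid response element. At the lysosome, a few family members act as sensors that report amino acid supply to the kinase mTORC1.

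To show where letters of that element lie in the members' promoters, windows of 250 bases before to 50 bases after each annotated start were taken from RefSeq (GRCh38.p14). Of the 32 members, 26 had a window, with 48 windows in all, 23 of them at the outer end of the gene. The letters TGATGNAA, searched on both strands, were found in 5 of the 26, and in 3.62% of all 35116 windows and 4.46% of all 27305 genes. A gene counts if any of its windows holds the letters, so shares of genes depend on the number of windows per gene and are not like for like. The 5 matches are shown with 11 bases on each side, 5′ to 3′ along the gene, with the motif in capitals.
SLC7A1: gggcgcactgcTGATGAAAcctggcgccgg
SLC38A1: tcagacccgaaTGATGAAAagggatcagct
SLC1A5: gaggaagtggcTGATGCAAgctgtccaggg
SLC1A4: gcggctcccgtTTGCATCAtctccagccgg
SLC1A3: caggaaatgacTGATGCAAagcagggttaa
The SLC7A1 run lies at chr13:29595663-29595692 on the minus strand, with the motif 8 to 15 bases past the start. The SLC38A1 run lies at chr12:46266502-46266531 on the minus strand, and the SLC1A5 run at chr19:46784893-46784922 on the minus strand. The SLC1A4 run lies at chr2:64989381-64989410 on the plus strand and holds the motif on the opposite strand, and the SLC1A3 run lies at chr5:36596357-36596386 on the plus strand. A match describes the letters and is not a measured binding site.

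The labelled cell type was checked against markers. The 5 epithelial markers (KRT8, KRT18, KRT19, EPCAM and CDH1) were above log2 4 in all 16 groups. Of 12 proximal tubule markers with a probe set, PAX8 was at 10.22 to 11.47 in the group means, while 10, among them LRP2, CUBN, SLC34A1 and AQP1, were under log2 4 in all groups. Of 5 fibroblast markers DCN and LUM were above log2 4 in all groups and COL1A2, COL3A1 and PDGFRB were in none, and 4 of 4 leukocyte markers were below it throughout. Of 4 endothelial markers, PECAM1 was at least log2 4 in 14 of 16 groups (3.84 to 5.05), and CDH5, KDR and VWF in none. The part of these cell markers in the results was not tested. One array stood apart: replicate 2 of Ra at 48 h had an upper quartile of 6.19, against 6.83 for replicate 3 of Fk at 12 h and at least 6.90 elsewhere, so the calls on Ra at 48 h are given with and without it. Same-numbered arrays deviated together in the CsA and Nnm sets, so a fit that also holds each replicate number constant (the replicate block) is quoted there where it changes a call.

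Of the 32 transporters, 25 had a group mean of at least log2 4 in all 16 groups, 2 in some groups, and 5 in none. The 5 not expressed by that rule were SLC1A1 and SLC1A3, which carry glutamate and aspartate, SLC7A9, the light chain of the luminal cystine and dibasic amino acid exchanger, SLC38A3, a glutamine carrier, and SLC43A1, a carrier of large neutral amino acids. SLC7A9 lay between 1.79 and 1.85 over all 48 arrays, while its partner SLC3A1, without which the exchanger does not reach the membrane, lay between 6.15 and 10.47. The 2 genes of the proximal tubule's cystine carrier were thus not both above the limit in these cells. SLC38A3 lay between 1.98 and 2.07, and SLC43A1 between 2.20 and 2.51. SLC1A1 exceeded log2 4 in 4 of 48 arrays and so passed the filter, with its highest group mean, 3.60 ± 0.60 (SD, n = 3), in Ra at 48 h. It was called in none of the comparisons.

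Of the pair expressed in some groups, SLC6A9, a glycine carrier, was above log2 4 in 9 of 48 arrays, all of them at 48 h. It passed the filter on low values only through these arrays, which were of CsA, Fk and controls. Comparing those groups with 12 h or with Ra is therefore not an independent test of this gene. Its group mean reached 4 only in the CsA set, with 4.46 ± 1.35 (SD, n = 3) in the controls at 48 h and 5.75 ± 0.06 (SD, n = 3) in CsA at 48 h. SLC38A5, which exchanges glutamine and other neutral amino acids for protons, had a mean of at least 4 in 11 groups. The 5 groups under 4 were all in the Nnm set, with the controls at 24 h, 5.24 ± 0.85 (SD, n = 3), as that set's only group above it.

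Among the 25 expressed throughout, the range over groups differed widely between genes. SLC7A8, a carrier of large neutral amino acids, had group means from 4.86 to 5.11 by its brightest probe set. Its other probe sets averaged 2.46, 2.35, 2.18 and 2.00, with 0 of 48 arrays above log2 4. Its place among the 25 therefore rests on the brightest probe set alone, and no comparison called the gene. SLC38A10, SLC7A6, which exchanges basic for neutral amino acids, SLC38A7, a lysosomal glutamine carrier, and SLC25A22, a mitochondrial glutamate carrier, were likewise called in none of the 26 comparisons without the block. SLC7A5, the light chain of the main carrier of large neutral amino acids, had group means from 6.68 in the CsA set's controls at 12 h to 11.06 in Fk at 48 h. Its SD within a group reached 2.74, in the high dose of Nnm at 24 h, and it too was called in none of the 26 comparisons without the block.

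**Figure D1:**
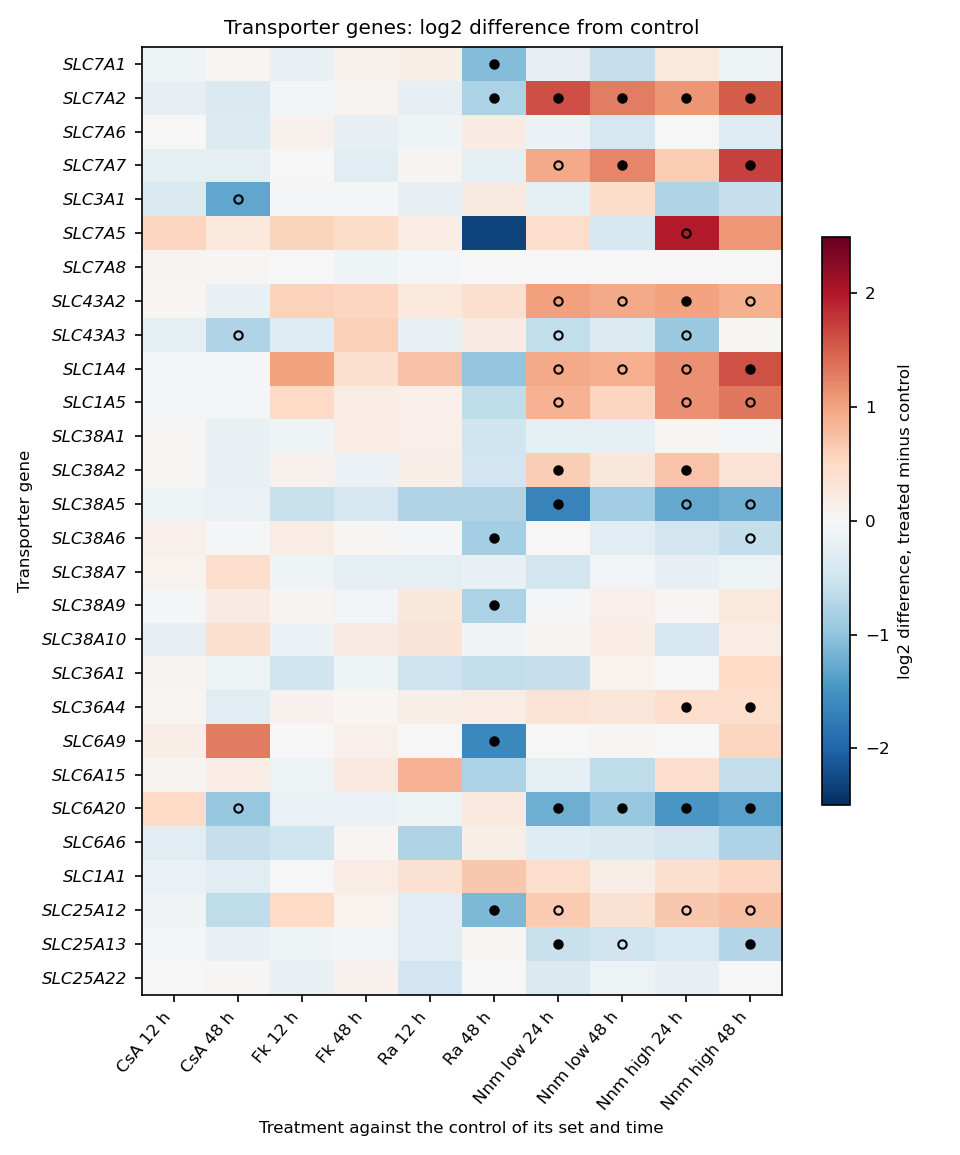
Log2 difference between treated and control arrays (colour) for the 28 transporters tested (rows) in the 10 treatment comparisons (columns), each from 3 arrays against 3. Filled circles mark an adjusted p under 0.05, and open circles mark genes that pass only with the replicate number as a block, in the CsA and Nnm sets. Calls lie in Ra at 48 h and in Nnm, with SLC7A2 red and SLC6A20 blue in all 4 Nnm columns.

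Over the 10 treatment comparisons, limma made 25 calls at a Benjamini-Hochberg adjusted p under 0.05, on 14 of the 28 transporters tested. They lay in 5 comparisons, 6 calls in Ra at 48 h and 19 in the 4 Nnm comparisons, and 9 of the 25 held with any 1 array left out. SLC7A2 was called in 5 comparisons and SLC6A20 in 4, and the other 12 genes in 1 or 2.

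**Figure D2:**
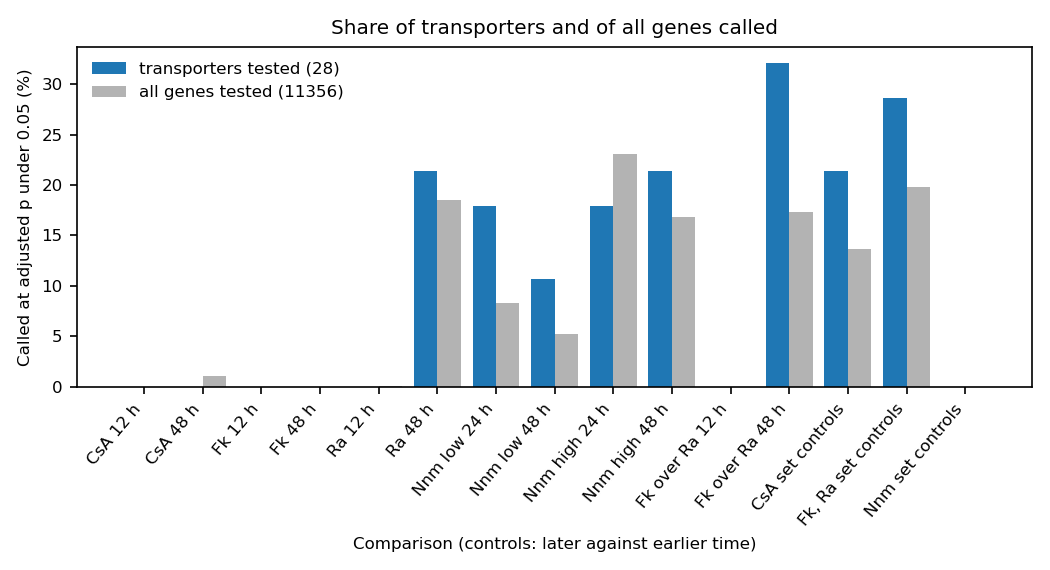
Percent of the 28 transporters tested (blue) and of all 11356 genes tested (grey) that passed an adjusted p under 0.05 in 15 comparisons of 3 arrays against 3. The bars of Ra at 48 h lie close together (21.4% and 18.5%), and without its replicate 2 the transporters' share was 3.6% against 7.19% there and 3.6% against 4.89% in Fk over Ra at 48 h.

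Time in culture was tested first in the control arrays, since the treatments are read against it. In the CsA set, 6 of 28 transporters were higher in controls at 48 h than at 12 h and 0 lower, where 13.7% of all genes were called and 6.12% were higher. In the Fk and Ra set, 7 were higher and 1 lower, where 19.8% of all genes were called and 10.1% were higher. The same 6 genes were called higher in both sets, SLC6A9 and 5 others: SLC7A1 and SLC7A2, which import arginine and lysine, SLC38A1 and SLC38A2, sodium-driven importers of small neutral amino acids, and SLC6A15, an importer of branched-chain amino acids and proline. SLC6A9 passed the filter on low values only through 48 h arrays, so its place in these counts was set in part by the arrays compared.

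SLC7A1 in the CsA set's controls read 9.75, 9.80 and 10.54 at 12 h and 11.23, 11.66 and 11.53 at 48 h. In the Fk and Ra set's controls it read 10.50, 10.31 and 10.46 at 12 h and 11.53, 11.71 and 11.16 at 48 h. The times did not overlap in either set. The differences were 1.45 ± 0.26 (SE; limma adjusted p = 0.000497) and 1.05 ± 0.26 (SE; limma adjusted p = 0.00458), and both held with any array left out. Further probe sets of the gene read 1.34 (called), 0.56 and 0.73 (not called) in the CsA set's controls. In the other set's controls they read 1.14 and 1.34 (called) and 0.82 (not called). Of the genes called higher in both sets, only SLC7A1 and SLC38A1 are among the motif matches shown above. SLC1A4 and SLC1A5 are also among those matches and were called in neither set without the block. The part of the motif in these rises was not tested.

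SLC7A2 in the CsA set's controls read 5.94, 6.23 and 6.60 at 12 h and 7.66, 7.69 and 7.57 at 48 h. The other set's controls were at 5.25, 5.21 and 5.20, then at 6.27, 6.25 and 6.18. Within each set the times did not overlap, and the arrays of a time lay close together except in the CsA set at 12 h (SD 0.33). SLC7A2 was higher at 48 h by 1.38 ± 0.28 (SE; limma adjusted p = 0.0013) and by 1.01 ± 0.28 (SE; limma adjusted p = 0.00924). In the Nnm set's controls, 48 h against 24 h, no transporter was called where 0.0% of all genes were, although 664 genes had an unadjusted p under 0.05. With the block, SLC7A2 was the only transporter called there, higher by 1.24 (limma adjusted p = 0.0271), where 0.704% of all genes were called.

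SLC6A15 had the largest rise of an expressed transporter in the Fk and Ra set's controls, from 7.80, 7.44 and 8.01 to 10.30, 10.11 and 9.57. The difference was 2.24 ± 0.32 (SE; limma adjusted p = 1.99e-05). In the CsA set's controls it went from 9.28, 9.52 and 9.24 to 10.50, 10.56 and 11.27, a difference of 1.43 ± 0.32 (SE; limma adjusted p = 0.00333). Neither pair of times overlapped, and both calls held with any array left out. Dimmer probe sets of the gene read 1.62 (called), 0.42 and -0.29 (not called) in the CsA set's controls. In the Fk and Ra set's controls they read 2.05 and 1.23 (called) and 0.97 (not called).

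SLC38A1 was higher at 48 h by 0.91 in the CsA set and by 0.67 in the Fk and Ra set, and SLC38A2 by 0.64 and 0.77. The SLC38A1 value of the CsA set and the SLC38A2 value of the other set passed with any array left out. SLC38A2 in the CsA set did not pass without replicate 3 of the 12 h controls or replicate 1 of the 48 h controls, where its difference ran down to 0.44 and its limma adjusted p up to 0.155. SLC38A1 in the Fk and Ra set did not pass without any of 3 arrays (replicates 1 and 2 at 12 h, replicate 2 at 48 h), with limma adjusted p up to 0.0725. Both genes were at high array readings throughout, from 10.97 to 12.84 for SLC38A1 and from 12.86 to 14.37 for SLC38A2.

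SLC6A9 read 2.20, 2.19 and 2.21 in the CsA set's controls at 12 h and 3.06, 5.75 and 4.57 at 48 h, and 2.19, 2.22 and 2.15 against 5.16, 4.18 and 2.22 in the other set. The gene was under log2 4 in every 12 h control and its 48 h arrays spread widely. The differences were 2.26 ± 0.52 (SE; limma adjusted p = 0.00369) and 1.67 ± 0.52 (SE; limma adjusted p = 0.0197). The first was lost without replicate 2 at 48 h (1.62, limma adjusted p = 0.0651). The second was lost without any 1 of 5 of its 6 arrays, replicate 3 at 48 h excepted, with limma adjusted p up to 0.239.

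The other 2 calls were in the Fk and Ra set alone, and no test compared the sets. SLC38A9, the lysosomal arginine sensor, was higher at 48 h by 0.65 ± 0.20 (SE; limma adjusted p = 0.0168), from 8.82, 8.66 and 8.61 to 9.65, 9.61 and 8.79. SLC6A6, the taurine carrier, was the 1 transporter lower at 48 h, by -1.16 ± 0.38 (SE; limma adjusted p = 0.0256), from 10.16, 10.46 and 10.59 to 9.07, 8.96 and 9.68. The SLC38A9 arrays overlapped and the SLC6A6 arrays did not. Each of the pair was lost without any 1 of 4 arrays, replicates 2 and 3 at 12 h and replicates 1 and 2 at 48 h, with limma adjusted p up to 0.139 and 0.109 respectively.

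With the replicate block the CsA set's controls gave 9 transporters higher and 4 lower, where 24.1% of all genes were called. Added were SLC7A5 by 2.65, SLC1A4, a carrier of alanine, serine and cysteine, by 1.06, and SLC1A5, the main glutamine importer of cultured cells, by 0.84. Lower were SLC38A5 by -1.05, SLC6A6 by -0.85, SLC43A2, another carrier of large neutral amino acids, by -0.66, and SLC25A13, the mitochondrial aspartate and glutamate exchanger citrin, by -0.49. The limma adjusted p of these 7 with the block ran from 0.00114 to 0.0495. SLC7A5 read 6.30, 5.74 and 8.02 at 12 h and 8.83, 9.57 and 9.61 at 48 h, so the times did not overlap although the spread within a time was wide.

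**Figure D3:**
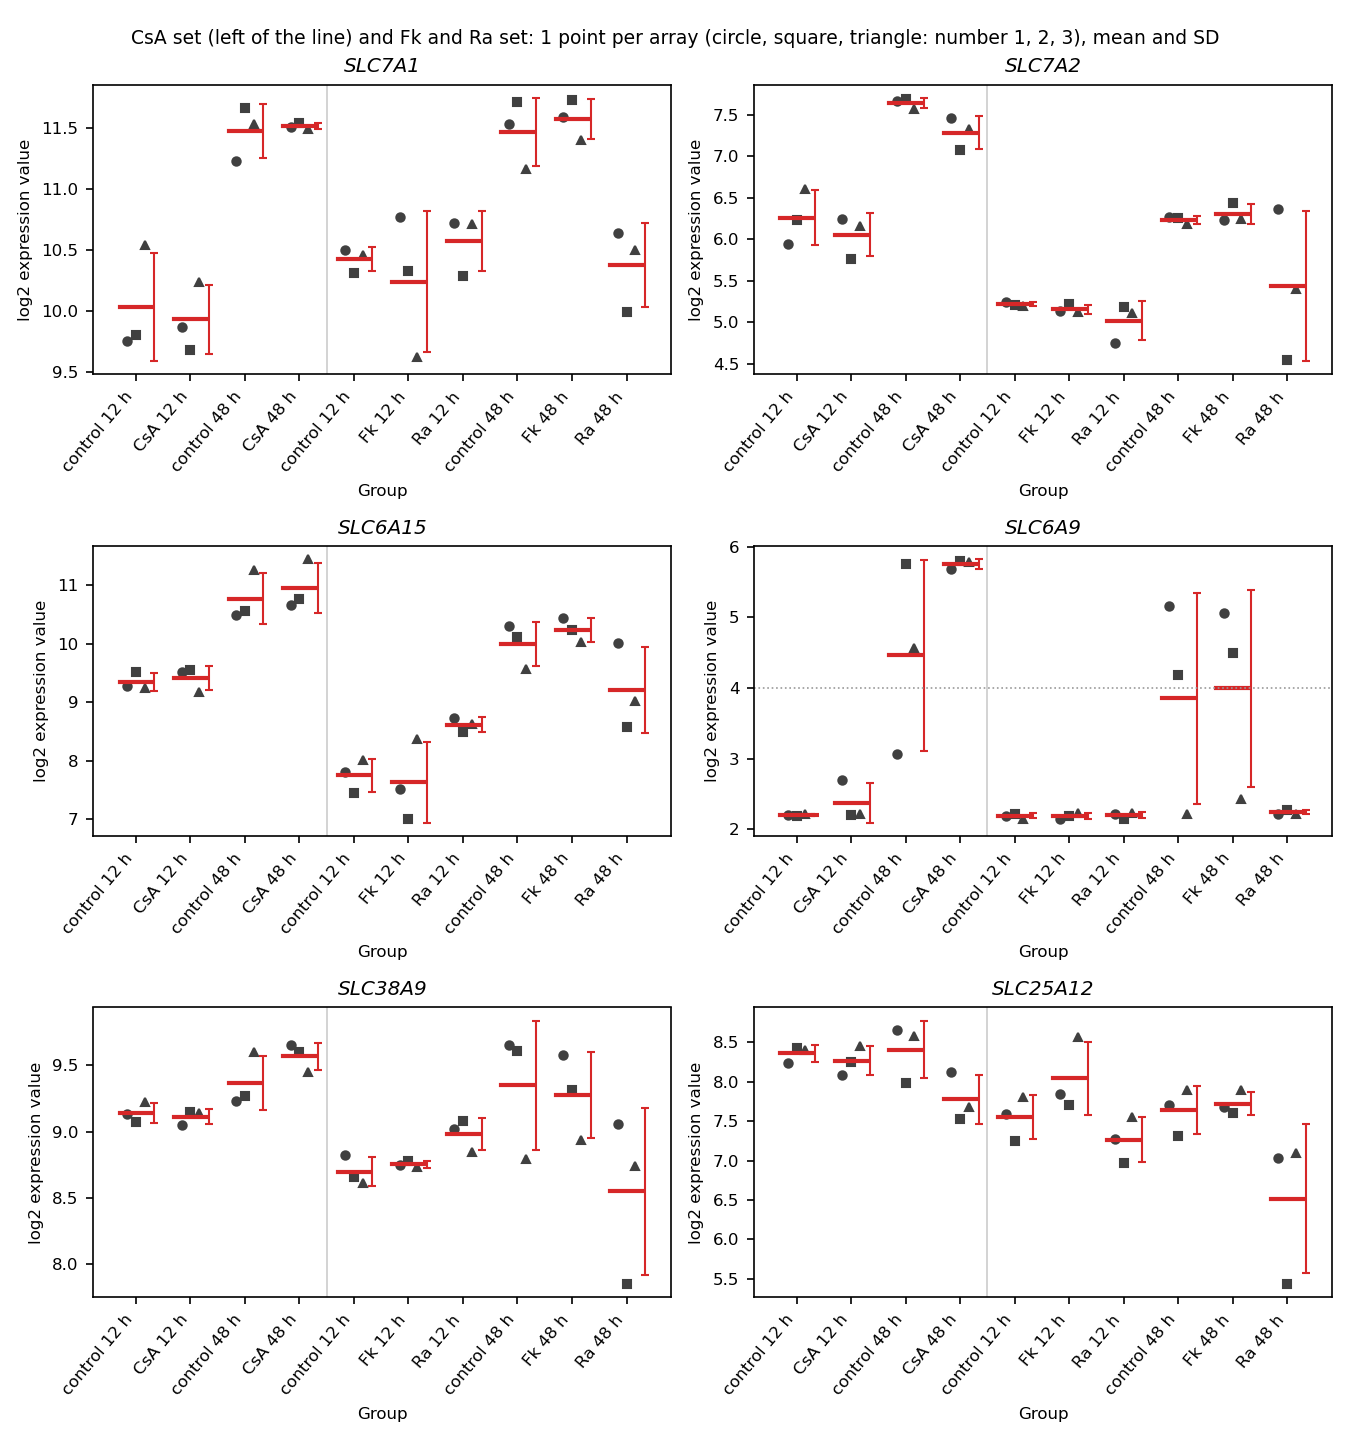
Log2 expression value (y axis) of 6 transporters in each array of the CsA set (left of the grey line) and of the Fk and Ra set (right), by group. Circle, square and triangle are numbers 1, 2 and 3, red lines are group means with SD (n = 3), and the dotted line marks log2 4. SLC7A1, SLC7A2 and SLC6A15 are higher at 48 h than at 12 h in controls, and the square of Ra at 48 h is the lowest of its group in 5 of the 6 panels.

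Ra at 48 h lowered 6 of the 28 transporters and raised 0, where 18.5% of all genes were called and 15.6% were lower. The median difference of the transporters was -0.35 and that of all genes was -0.18, and changes relative to that shift are given by centred arrays. The 6 were SLC7A1 and SLC7A2 (arginine and lysine), SLC6A9 (glycine), SLC38A6, an orphan member of the family, SLC38A9 (the lysosomal sensor) and SLC25A12, the mitochondrial aspartate and glutamate exchanger aralar. As SLC6A9 passed the filter on low values only through other groups, these controls among them, its place in this count is not independent. With each array centred on its median, 17.0% of all genes were called, and their split over all genes went from 337 higher and 1769 lower to 1028 higher and 903 lower. Quantile normalization gave 899 and 1008, and leaving out replicate 2 gave 423 and 394. With centred arrays 3 transporters (SLC7A1, SLC25A12 and SLC38A9) were lower, and SLC36A4, a carrier of tryptophan and proline, was higher (0.45, limma adjusted p = 0.027). Without replicate 2 of Ra, 7.19% of all genes were called, and SLC7A1 was the only transporter among them.

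SLC7A1 read 10.64, 9.99 and 10.50 in Ra at 48 h against 11.53, 11.71 and 11.16 in its controls. The groups did not overlap, and the Ra arrays lay near the 12 h controls given above. The difference was -1.09 ± 0.26 (SE; limma adjusted p = 0.00404), or 2.13-fold lower. It was -0.90 ± 0.29 (SE; limma adjusted p = 0.0493) without replicate 2 of Ra, and -0.84 (limma adjusted p = 0.0167) with centred arrays. Of 3 further probe sets of the gene, 2 were called lower and the third, the dimmest, read -0.86 without passing.

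SLC25A12 read 7.03, 5.43 and 7.09 in Ra at 48 h against 7.71, 7.31 and 7.90. The groups did not overlap, and replicate 2 of Ra was far below the others. The difference was -1.13 ± 0.29 (SE; limma adjusted p = 0.00727), and without that replicate -0.58 ± 0.26 (SE; limma adjusted p = 0.164). A second probe set of the gene gave -0.04 (limma adjusted p = 0.978) in the same comparison.

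SLC38A9 read 9.06, 7.85 and 8.74 in Ra at 48 h against 9.65, 9.61 and 8.79 in the controls. The lowest control lay within the Ra range. The difference was -0.80 ± 0.20 (SE; limma adjusted p = 0.00483), then -0.45 ± 0.18 (SE; limma adjusted p = 0.109) without replicate 2 of Ra. The call was also lost without replicate 1 of the controls. SLC38A6 read 9.54, 8.37 and 8.92 against 9.80, 9.75 and 9.81, with no overlap. Its difference was -0.84 ± 0.24 (SE; limma adjusted p = 0.0127), and -0.55 ± 0.25 (SE; limma adjusted p = 0.164) without replicate 2. It too was lost without replicate 1 of the controls.

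SLC7A2 read 6.36, 4.55 and 5.40 in Ra at 48 h against 6.27, 6.25 and 6.18. Replicate 1 of Ra lay at the control level, so the groups overlapped. The difference of -0.80 ± 0.28 (SE; limma adjusted p = 0.0417) was lost without any 1 of 5 of the 6 arrays, replicate 1 of Ra excepted, and was -0.36 ± 0.27 (SE; limma adjusted p = 0.46) without replicate 2. SLC6A9 was at 2.22, 2.27 and 2.22 in Ra, near its 12 h readings, against 5.16, 4.18 and 2.22. Its difference of -1.62 ± 0.52 (SE; limma adjusted p = 0.0261) was lost without replicate 1 or 2 of the controls or replicate 2 or 3 of Ra, with limma adjusted p from 0.0809 (without replicate 2 of Ra, -1.64) up to 0.272.

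SLC7A5 had the largest difference of all transporters in Ra at 48 h without being called. Its arrays were at 9.75, 6.98 and 8.16 against 10.39, 10.96 and 10.46, with no overlap. The difference was -2.31 ± 1.01 (SE; limma adjusted p = 0.105), and -1.65 ± 1.12 (SE; limma adjusted p = 0.409) without replicate 2. SLC1A4 read -0.98 and SLC1A5 -0.63, and -0.61 and -0.42 without replicate 2, none of them called. At 12 h, Ra changed no transporter where 0.0704% of all genes were called, and the lowest limma adjusted p was 0.431, for SLC6A15, which was at 8.74, 8.49 and 8.63 against 7.80, 7.44 and 8.01.

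The effect of Ra at 48 h was set against its effect at 12 h. This change of effect was below 0 for 2 transporters, where 3.62% of all genes were called. SLC6A15 gave 0.87 ± 0.32 (SE) over control at 12 h and -0.79 ± 0.32 (SE) at 48 h, a change of -1.66 ± 0.46 (SE; limma adjusted p = 0.0358). SLC38A9 gave 0.29 ± 0.20 (SE) and then -0.80 ± 0.20 (SE), a change of -1.09 ± 0.28 (SE; limma adjusted p = 0.0242). Without replicate 2 of Ra at 48 h neither was called, with -1.34 ± 0.46 (SE; limma adjusted p = 0.148) and -0.74 ± 0.24 (SE; limma adjusted p = 0.115), where 0.766% of all genes were.

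Fk changed no transporter at 12 h or at 48 h, where 0.0% of all genes were called at either time. By unadjusted p under 0.05, 712 genes passed at 12 h and 311 at 48 h, and SLC1A4 at 12 h was the 1 transporter among them. It read 9.67, 8.92 and 9.42 against 8.48, 8.28 and 8.25, with no overlap, a difference of 1.00 ± 0.46 (SE; limma adjusted p = 0.774). The differences of the other transporters ran from -0.56 (SLC38A5) at 12 h to 0.59 (SLC43A3, a member of the family known as a purine carrier) at 48 h. For SLC7A1, which Ra lowered at 48 h, the Fk difference at 48 h was 0.11 with a 95% interval of -0.43 to 0.64.

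At 48 h, 9 transporters were higher in Fk than in Ra and 0 lower, where 17.3% of all genes were called and 15.2% were higher. The median of the transporters was 0.34 and that of all genes 0.20. The 9 comprised the importers SLC7A1 (1.20 ± 0.26 SE), SLC7A2 (0.87 ± 0.28 SE), SLC1A4 (1.37 ± 0.46 SE), SLC38A1 (0.67 ± 0.21 SE), SLC6A15 (1.03 ± 0.32 SE) and SLC6A9 (1.76 ± 0.52 SE), together with SLC38A6 (0.86 ± 0.24 SE), SLC38A9 (0.73 ± 0.20 SE) and SLC25A12 (1.21 ± 0.29 SE). As SLC6A9 passed the filter on low values only through groups other than Ra, Fk at 48 h among them, its place in this count is not independent. Only SLC7A1 passed with any array left out. Its Fk arrays at 48 h were at 11.59, 11.73 and 11.40, all above the 3 Ra arrays.

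Without replicate 2 of Ra, 4.89% of all genes were called between Fk and Ra at 48 h, and SLC7A1 was the only transporter, at 1.01 ± 0.29 (SE; limma adjusted p = 0.0372). The other 8 then lay between 0.38 and 1.77, all still above 0. Leaving out replicate 1 or replicate 2 of Fk left 4 transporters called, and leaving out replicate 1 of Ra gave 12. With centred arrays 13.8% of all genes were called, 713 higher and 855 lower in place of 1721 and 241. Quantile normalization gave 820 and 722 over all genes, and leaving out replicate 2 of Ra gave 296 and 259. With centred arrays SLC7A1 (0.91) and SLC25A12 (0.92) were still higher, and SLC36A4 (-0.45) and SLC7A6 (-0.71) were lower in Fk. Without centring, a second probe set of SLC25A12 gave 0.22 (limma adjusted p = 0.835) between Fk and Ra at 48 h. At 12 h no transporter differed between Fk and Ra where 0.00881% of all genes did, and 875 genes had an unadjusted p under 0.05.

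CsA at 12 h changed no transporter, where 0.0% of all genes were called and 36 had an unadjusted p under 0.05. At 48 h it again changed none, where 1.02% were called. With the replicate block, 3 transporters were lower at 48 h and 0 higher, where 4.39% of all genes were called. They were SLC43A3, SLC6A20, an importer of proline and other imino acids, and SLC3A1, the partner of the cystine exchanger.

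SLC6A20 read 6.29, 5.16 and 5.93 in CsA at 48 h against 6.69, 6.56 and 6.94, with no overlap. The difference was -0.94, with limma adjusted p = 0.0697 without the block and 0.0295 with it. SLC3A1 was at 9.26, 8.06 and 6.15 against 9.99, 9.37 and 7.97, so the numbers differed widely while each treated array was below its own control. Its difference was -1.29, with limma adjusted p = 0.39 without the block and 0.0452 with it. SLC43A3 read 8.64, 8.35 and 10.72 against 9.20, 9.56 and 11.19, a difference of -0.75, with limma adjusted p = 0.58 and 0.0201. With all arrays of number 2 or of number 3 left out and the block kept, none of the 3 was called, and without number 1 SLC3A1 and SLC6A20 were.

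CsA and Ra were compared at 48 h as the difference of their effects over their own controls, since they lie in separate sets. The effect was higher with CsA for SLC6A9, SLC7A1 and SLC38A9 and lower for SLC6A20, where 16.5% of all genes were called. SLC6A9 gave 1.29 ± 0.52 (SE) with CsA, not called on its own, and the negative value above with Ra, a difference of 2.91 ± 0.73 (SE; limma adjusted p = 0.00664) that passed with any of 12 arrays left out. The gene passed the filter on low values only through 48 h arrays of CsA, Fk and controls. This comparison is therefore not an independent test of SLC6A9. Its 3 CsA arrays were at 5.68, 5.80 and 5.79 against controls of 3.06, 5.75 and 4.57, so the highest control lay among them. For SLC6A20 the difference was -1.18 ± 0.36 (SE; limma adjusted p = 0.023). With the block 7 transporters were called, where 26.5% of all genes were, adding SLC7A5 (2.57), SLC3A1 (-1.50) and SLC43A3 (-0.95) with limma adjusted p of 0.0183, 0.0354 and 0.009. The replicate numbers pair the arrays of the CsA set, and those of the Fk and Ra set only unevenly.

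Without replicate 2 of Ra, SLC6A9 was at 2.93 ± 0.79 (SE; limma adjusted p = 0.0137) and SLC6A20 at -1.15 ± 0.39 (SE; limma adjusted p = 0.0472), where 11.8% of all genes were called. SLC36A4 was then called as well, at -0.62 ± 0.20 (SE; limma adjusted p = 0.0338). SLC38A9 went from 1.00 ± 0.28 (SE; limma adjusted p = 0.0134) to 0.65 (limma adjusted p = 0.0675) without it, and SLC7A1 from 1.13 ± 0.37 (SE; limma adjusted p = 0.033) to 0.94 (limma adjusted p = 0.106). SLC6A20 was lost without replicate 2 of CsA, replicate 3 of the CsA controls or replicate 1 or 2 of the Ra controls, with limma adjusted p up to 0.111. SLC38A9 was also lost without replicate 1 of the Ra controls, and SLC7A1 without any 1 of 5 further arrays. The effect of CsA differed from that of Fk for no transporter at 12 h or at 48 h, where 0.0% of all genes were called at either time, and 165 and 696 genes had an unadjusted p under 0.05. With the block SLC43A3 was called at 48 h (-1.34, limma adjusted p = 0.0222), where 0.176% of all genes were. It differed from that of Ra at 12 h for none either, where 0.0% were called and 217 had an unadjusted p under 0.05.

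Nnm gave the largest number of calls. At 24 h the low dose changed 5 of 28 transporters, 2 higher and 3 lower, where 8.29% of all genes were called, and the high dose changed 5, 4 higher and 1 lower, where 23.1% were called. At 48 h the low dose changed 3, 2 higher and 1 lower, where 5.22% were called, and the high dose changed 6, 4 higher and 2 lower, where 16.8% were called. Carriers of basic amino acids (SLC7A2, SLC7A7) and small neutral ones (SLC38A2, SLC1A4) were among those higher, and the imino acid importer SLC6A20 was lower in all 4 comparisons. Against all genes, the share of transporters called was above the background in 3 of the comparisons and below it with the high dose at 24 h (17.9%). The doses share their controls, so their calls at a time are not independent.

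SLC7A2 at 24 h read 5.53, 5.39 and 5.87 in controls, 7.31, 6.80 and 7.52 with the low dose and 6.34, 7.14 and 6.65 with the high dose. At 48 h it was at 6.90, 6.89 and 6.74 in controls, 8.66, 7.69 and 7.98 with the low dose and 8.82, 7.90 and 8.33 with the high dose. Treated and control arrays did not overlap in any of the 4 comparisons. Every call on SLC7A2 rests on a single probe set, since its others averaged 2.43 and 2.17, with 0 of 48 arrays above log2 4, and were not tested. The low dose raised it by 1.61 ± 0.28 at 24 h (SE; limma adjusted p = 0.000647), or 3.05-fold, and by 1.27 ± 0.28 at 48 h (SE; limma adjusted p = 0.0055). The high dose raised it by 1.11 ± 0.28 at 24 h (SE; limma adjusted p = 0.00459) and by 1.51 ± 0.28 at 48 h (SE; limma adjusted p = 0.000396). All calls but the low dose at 48 h held with any array left out, and that one was lost without replicate 1 of the treated arrays (0.99, limma adjusted p = 0.0975).

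SLC7A7, the light chain of the basolateral exchanger that lets arginine and lysine out of tubule cells, rose at 48 h. It read 7.18, 7.74 and 7.58 in controls, 9.12, 7.95 and 9.13 with the low dose and 9.37, 8.70 and 9.54 with the high dose. No treated array overlapped the controls, although number 2 of the low dose was close. The high dose raised it by 1.70 ± 0.32 (SE; limma adjusted p = 0.000431), 3.26-fold, and this held with any array left out. The low dose raised it by 1.23 ± 0.32 (SE; limma adjusted p = 0.018), which was lost without replicate 1 or 3 of either group (limma adjusted p up to 0.162). At 24 h the low dose gave 0.95 ± 0.32 (SE), with limma adjusted p = 0.0569 without the block and 0.0325 with it. SLC7A6, an exchanger of the same type, was called in no Nnm comparison.

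SLC6A20 read 7.47, 6.97 and 7.45 in controls at 24 h, 5.88, 6.28 and 6.07 with the low dose and 5.88, 5.72 and 5.89 with the high dose. At 48 h it was at 7.83, 7.05 and 7.55, then at 6.55, 6.49 and 6.53 with the low dose and 6.24, 5.93 and 6.19 with the high dose. Every treated array was below every control of its time. The falls were -1.22 ± 0.26 and -0.95 ± 0.26 with the low dose (SE; limma adjusted p = 0.00323 and 0.0226) and -1.46 ± 0.26 and -1.36 ± 0.26 with the high dose (SE; limma adjusted p = 0.000191 and 0.000465). The low dose at 48 h was lost without replicate 1 or 3 of either group (limma adjusted p up to 0.148), and the other 3 held with any array left out. A second, dimmer probe set was below 0 in all 4 comparisons and called in 3.

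SLC38A2, a sodium-driven importer of alanine, glutamine and other small neutral amino acids, rose at 24 h. It read 13.55, 13.71 and 13.27 in controls, 14.19, 14.10 and 14.09 with the low dose and 14.35, 14.11 and 14.21 with the high dose. Treated and control arrays did not overlap. The differences were 0.62 ± 0.18 (SE; limma adjusted p = 0.0281) and 0.71 ± 0.18 (SE; limma adjusted p = 0.00471). The high dose held with any array left out, and the low dose was lost without replicate 1 or 3 of either group (limma adjusted p up to 0.186). Both further probe sets of the gene were called higher in both comparisons. At 48 h it was at 0.28 and 0.37 without a call.

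**Figure D4:**
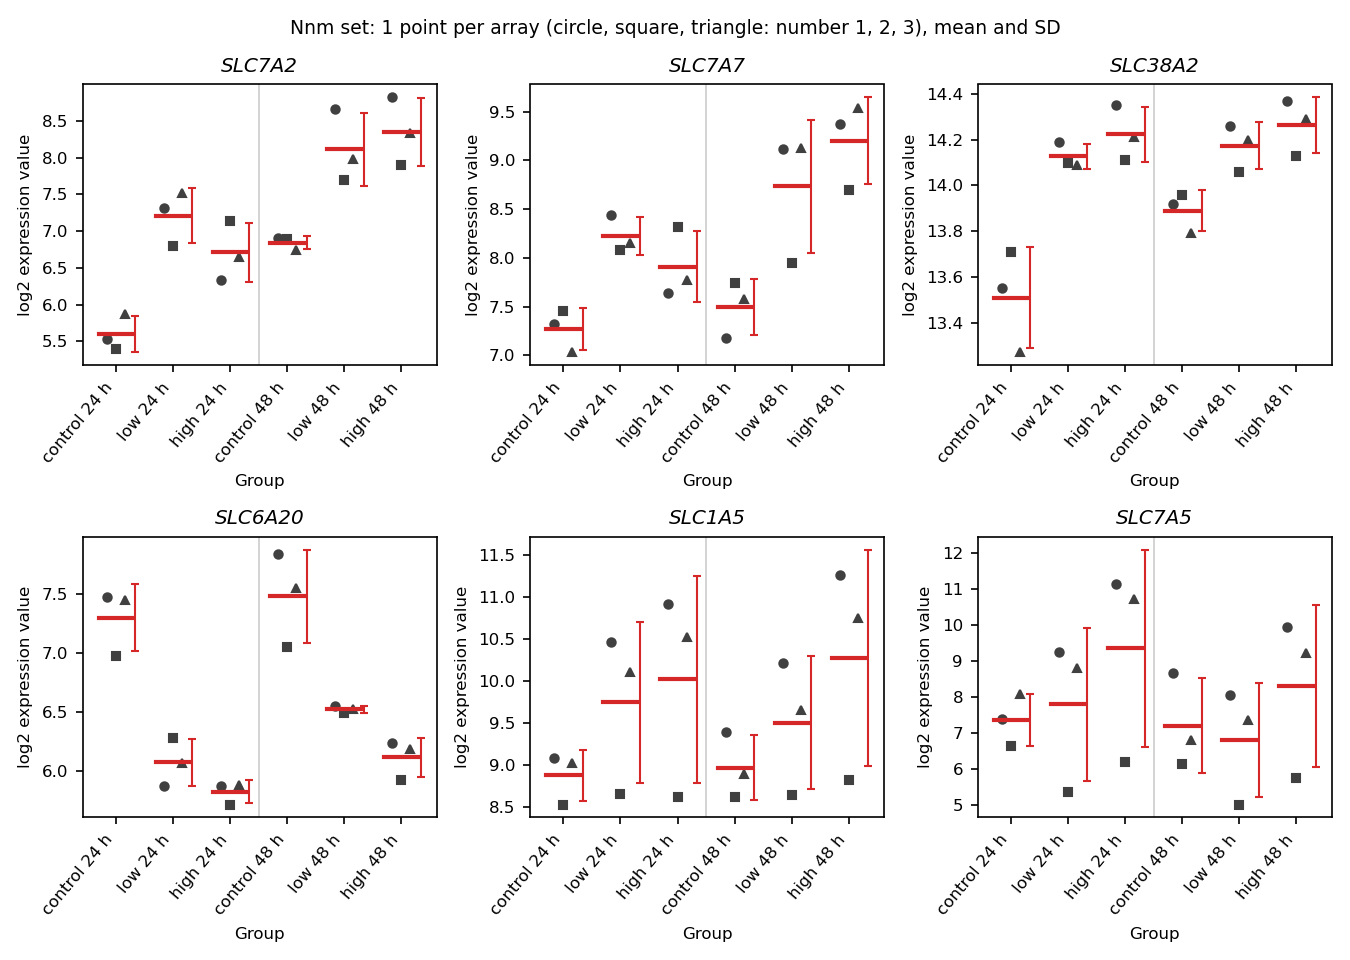
Log2 expression value (y axis) of 6 transporters in each array of the Nnm set, by group (x axis) at 24 h and 48 h. Circle, square and triangle are numbers 1, 2 and 3, and red lines are group means with SD (n = 3). SLC7A2 and SLC6A20 separate from controls with all 3 numbers, whereas the square of SLC1A5 and SLC7A5 lies apart from the circle and triangle in treated groups.

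The other calls without the block were 1 or 2 per gene. SLC38A5 fell by 1.67 on the log2 scale with the low dose at 24 h (± 0.52 SE; limma adjusted p = 0.04), from 5.29, 4.36 and 6.06 to 3.40, 3.09 and 4.22, without overlap and to a mean under log2 4. SLC25A13 fell with the low dose at 24 h, from 10.83, 10.77 and 10.86 to 10.04, 10.44 and 10.33 (-0.55 ± 0.18 SE; limma adjusted p = 0.0478). At 48 h the high dose took it from 10.55, 10.77 and 10.71 to 9.66, 10.43 and 9.75 (-0.73 ± 0.18 SE; limma adjusted p = 0.00461). Both pairs of groups were apart for this mitochondrial exchanger. The 2 calls at 24 h were each lost without 5 of the 6 arrays in turn, with limma adjusted p up to 0.258 for SLC38A5 (replicate 2 of the controls excepted) and 0.265 for SLC25A13 (replicate 2 of the low dose excepted), and the call at 48 h without replicate 1 of the high dose (limma adjusted p = 0.0701).

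SLC36A4 rose with the high dose from 8.60, 8.91 and 8.78 to 9.22, 9.10 and 9.28 at 24 h (0.44 ± 0.14 SE; limma adjusted p = 0.0248). At 48 h it went from 8.42, 8.86 and 8.96 to 9.16, 8.96 and 9.41 (0.43 ± 0.14 SE; limma adjusted p = 0.0355), where 1 treated array did not exceed the highest control. A second probe set of the gene read -0.15 at both times without a call. The call at 24 h was lost without replicate 1 or 3 of either group (limma adjusted p up to 0.127), and that at 48 h without replicate 1 of either group or replicate 3 of the high dose (up to 0.262).

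SLC43A2 was higher with the high dose at 24 h by 1.00 ± 0.35 (SE; limma adjusted p = 0.0353), from 6.02, 6.10 and 6.56 to 7.89, 6.36 and 7.42. SLC1A4 was higher with the high dose at 48 h by 1.60 ± 0.46 (SE; limma adjusted p = 0.0156), from 8.54, 7.60 and 7.83 to 10.26, 8.34 and 10.18. In both genes number 2 lay low in the treated group and within the control range. Each call was lost without any 1 of 4 arrays, with limma adjusted p up to 0.279 and 0.144: replicate 1 or 2 of the controls or 1 or 3 of the treated arrays for SLC43A2, and replicate 2 or 3 of the controls or 1 or 3 of the treated arrays for SLC1A4.

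With the replicate block, 11 transporters were called with the low dose at 24 h, where 18.0% of all genes were, and 6 with the low dose at 48 h, where 13.0% were. The high dose then had 11 at 24 h, where 33.7% were called, and 11 at 48 h, where 27.4% were. SLC1A4 and SLC43A2 were then higher in all 4 comparisons. SLC1A5 was higher in 3 (0.87, 1.15 and 1.31, limma adjusted p from 0.019 down to 0.000426), as was SLC25A12 (0.66, 0.68 and 0.76, limma adjusted p from 0.0276 down to 0.0078). SLC38A5 was lower in 3 and SLC43A3 in 2 (-0.62 and -0.92 at 24 h). With all arrays of number 1 or of number 3 left out and the block kept, fewer transporters were called. Without number 1 the low dose had 1 at 24 h (SLC7A2; 3.21% of all genes) and 0 at 48 h (1.65%), and the high dose 4 at 24 h (8.71%) and 5 at 48 h (7.04%). Without number 3 they were 1 (again SLC7A2; 2.0%), 0 (2.19%), 5 (8.81%) and 4 (7.85%). SLC25A12 was called in none of these 8 comparisons, SLC43A2 in 1, SLC1A5 in 1 and SLC1A4 in 2.

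Several carriers of neutral amino acids moved unevenly over the 3 same-numbered pairs. For SLC1A5 with the high dose, treated minus control was 1.85, 0.09 and 1.50 at 24 h and 1.87, 0.20 and 1.85 at 48 h, in the order of the numbers. For SLC7A5 it was 3.75, -0.44 and 2.64 at 24 h and 1.26, -0.38 and 2.40 at 48 h. Number 2 was the smallest difference in each, and for SLC7A5 it was below 0. For SLC1A4 the high dose gave 1.43, 0.43 and 1.55 at 24 h and 1.72, 0.74 and 2.34 at 48 h. SLC43A2 gave 1.87, 0.26 and 0.86, then 1.33, 0.15 and 1.17.

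SLC6A20 did not share that pattern to the same size with the high dose. Its differences there were -1.58, -1.25 and -1.56 at 24 h and -1.59, -1.12 and -1.36 at 48 h. With the low dose number 2 moved less than numbers 1 and 3, at -1.58, -0.69 and -1.38, then -1.28, -0.56 and -1.02. SLC7A2 with the high dose gave 0.81, 1.75 and 0.78 at 24 h, where number 2 was the largest, and 1.91, 1.02 and 1.59 at 48 h. With the low dose it gave 1.78, 1.40 and 1.65, then 1.76, 0.80 and 1.24, where number 2 was the smallest at both times. With all arrays of number 2 left out and the block kept, 11 transporters were called with the low dose at 24 h (20.4% of all genes) and 7 at 48 h (15.6%), and 10 with the high dose at 24 h (38.1%) and 14 at 48 h (31.1%). SLC7A5 in the high dose at 24 h had 1.98 ± 1.01 (SE; limma adjusted p = 0.154) without the block and an adjusted p of 0.00828 with it. What number 2 stands for is not given in the labels, and its part in these results was not tested beyond leaving it out.

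The high and the low dose of Nnm differed for no transporter at 24 h, where 0.00881% of all genes were called, or at 48 h, where 0.0176% were. By unadjusted p under 0.05, 808 genes passed at 24 h and 398 at 48 h. For SLC7A2 the high dose minus the low dose was -0.50 at 24 h, with a 95% interval of -1.07 to 0.07, and 0.24 at 48 h, with an interval of -0.33 to 0.81. For SLC6A20 it was -0.24 (interval -0.76 to 0.28) and -0.40 (interval -0.92 to 0.12). For SLC7A5 it was 1.55 (interval -0.50 to 3.60) and 1.50 (interval -0.55 to 3.55). Leaving out replicate 2 of the high dose at 24 h called SLC7A5 alone.

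The effect of Nnm at 48 h against 24 h differed for no transporter at the low dose, where 0.0% of all genes were called and 219 had an unadjusted p under 0.05, or at the high dose, where 0.00881% were called and 721 had one. The nearest were SLC7A7 with 1.07 ± 0.45 (SE) and SLC6A15 with -1.02 ± 0.46 (SE) at the high dose, both with limma adjusted p = 0.743. The effects of CsA and Fk at 48 h against 12 h also differed for none, where 0.0% of all genes were called, and 327 and 337 genes had an unadjusted p under 0.05.

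Lists of related genes were set beside the members. Of 17 genes of the amino acid response, 10 were higher and 1 lower in the CsA set's controls at 48 h against 12 h (13.7% of all genes called), and 12 were higher and 1 lower in the Fk and Ra set's (19.8%). The median differences were 1.53 and 1.75. DDIT3, a stress factor induced by ATF4, was higher by 5.39 ± 0.79 and 4.97 ± 0.79 (SE; limma adjusted p = 4.48e-05 and 4.88e-05), and ATF3 by 5.43 ± 1.21 and 5.37 ± 1.21 (SE; limma adjusted p = 0.00305 and 0.00202). Ra at 48 h lowered 13 of the 17 and raised 0 (15.6% of all genes lower), with a median of -1.94. Without its replicate 2 it lowered 6 (7.19% of all genes called in either direction), with a median of -1.66, and DDIT3 was then at -3.23 ± 0.89 (SE; limma adjusted p = 0.0239). Nnm at the high dose for 24 h raised 3 without the block, where 1197 of all 11356 genes were higher and 1421 lower (23.1% called). Among these 3, DDIT3 held in 1 of 6 fits with an array left out and EIF2AK4 in 3 of 6. With the block the high dose at 24 h raised 9, where 33.7% of all genes were called in either direction. The high dose at 48 h raised 0 without the block (16.8% called in either direction) and 5 with it (27.4%). CsA and Fk changed 0 of 17 at either time.

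Of 34 other amino acid transporters, 14 passed the filter. SLC7A11, the light chain of the cystine and glutamate exchanger, and SLC3A2, the heavy chain that SLC7A5, SLC7A6, SLC7A7, SLC7A8 and SLC7A11 all need, led this list. SLC7A11 was higher in controls at 48 h by 5.08 ± 0.75 (SE; limma adjusted p = 4.91e-05) in the CsA set and 3.97 ± 0.75 (SE; limma adjusted p = 0.000379) in the Fk and Ra set, and SLC3A2 by 2.91 and 2.67. Ra at 48 h had 5 of the 14 lower and 1 higher (18.5% of all genes called), with SLC7A11 at -3.71 ± 0.75 (SE; limma adjusted p = 0.00103) and SLC3A2 at -2.13 ± 0.62 (SE; limma adjusted p = 0.0152), of which SLC3A2 held in 2 of 6 fits with an array left out. Without replicate 2, 2 were lower and 1 higher (7.19% of all genes called), with SLC7A11 at -3.13 ± 0.82 (SE; limma adjusted p = 0.018) and SLC3A2 at -1.85 ± 0.70 (SE; limma adjusted p = 0.0975).

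Nnm at the high dose for 24 h had 3 of these 14 higher and 3 lower, where 23.1% of all genes were called. SLC7A11 was higher by 3.27 ± 0.75 (SE; limma adjusted p = 0.0022), and SLC38A11, a member of the SLC38 family, was lower by -1.91 ± 0.61 (SE; limma adjusted p = 0.0213). CTNS, the lysosomal cystine exporter, was lower with the low dose at 24 h by -1.43 ± 0.38 (SE; limma adjusted p = 0.0179) and with the high dose at 48 h by -1.48 ± 0.38 (SE; limma adjusted p = 0.00721). SLC15A4, a lysosomal histidine and peptide carrier, was lower with the low dose by -0.79 ± 0.17 at 24 h and -0.66 ± 0.17 at 48 h (SE; limma adjusted p = 0.00475 and 0.0195). Of 6 fits with an array left out, SLC38A11 and CTNS at 24 h held in 2, CTNS at 48 h in 5, and SLC15A4 in 6 at 24 h and 1 at 48 h.

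Of 19 genes of amino acid sensing at the lysosome, 17 were tested. Ra at 48 h lowered 2 (15.6% of all genes lower), RRAGC, a GTPase that recruits mTORC1, by -0.87 ± 0.21 (SE; limma adjusted p = 0.00348) and NPRL2 by -0.61 ± 0.21 (SE; limma adjusted p = 0.0396). Without replicate 2 only RRAGC was called, at -0.73 ± 0.22 (SE; limma adjusted p = 0.0399), and the median of the list was 0.09, against -0.11 with all arrays. RRAGC was higher in controls at 48 h by 0.90 in both sets. The list had 1 gene higher and 0 lower in the CsA set's controls (13.7% of all genes called), and 2 higher and 1 lower in the other set's (19.8%). Nnm at the high dose for 24 h raised 2 of the 17 and lowered 1, where 23.1% of all genes were called. It lowered RRAGA by -1.22 ± 0.22 (SE; limma adjusted p = 0.000208) and raised RRAGD, by 1.74 ± 0.50 (SE; limma adjusted p = 0.0125), which held in 4 of 6 fits with an array left out. SLC38A9, the member that works with these GTPases, was called in no Nnm comparison, with group means in that set from 8.84 to 9.11.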

How the data were processed

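RNA of 48 HK-2 samples was hybridised to 1 array each. The submitters' processing notes name GCRMA, without a version, for the deposited log2 values; that the logarithm is base 2 was inferred from the values, which ran from 0.7212 to 16.109. They were used without further normalization. Of 54675 probe sets, 62 controls were set aside, 41091 had 1 symbol, 1801 several and 11721 none listed. Probe sets over log2 4 in at least 3 arrays (20960) gave 11356 genes, each by its brightest probe set. One mean per group was fitted over all arrays with limma 3.58.1 (R 4.3.3), 26 contrasts were tested two-sided, and a call means a Benjamini-Hochberg adjusted p below 0.05; the fit was tested on simulated data. The members and lists were chosen with earlier results of these data known. Members called in a treatment comparison are given array by array, and others by ranges and counts. A mean under log2 4 is called not expressed. Replicate numbers come from the labels, which call the samples biological replicates. Deviations from the group means correlated above 0.1 in 18 of 18 same-numbered pairs of the CsA set (0.243 to 0.926) and 45 of 45 of the Nnm set (0.138 to 0.786), so numbers pair arrays there. Alternatives were centred arrays, quantile normalization, no or a stricter filter, the mean of probe sets, the block, each set alone and 1 array left out. Leaving out a whole replicate number was added after the data were seen.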

Additional observations from a re-analysis of the deposited data

Results flagged for a closer look

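The effect of Ra differed between its 2 times for a pair of transporters, by the test of the difference itself. The effect at 48 h minus that at 12 h was -1.66 for SLC6A15 and -1.09 for SLC38A9. Both results rest on replicate 2 of Ra at 48 h and on several other arrays, and neither passed without that replicate. Groups of 3 arrays are too small for a test of single outlying arrays.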

How the results depend on the processing

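The replicate block gave counts of transporters called of 3 for CsA at 48 h, 10 for Ra at 48 h, 11 and 6 for the low dose of Nnm at 24 h and 48 h, 11 and 11 for the high dose, 13, 15 and 1 for the controls over time of the CsA, the Fk and Ra, and the Nnm set, 5 for the change of the Ra effect, 1 for CsA against Fk and 7 for CsA against Ra at 48 h. In the Fk and Ra set 19 of 45 same-numbered pairs correlated above 0.1, over a range of -0.178 to 0.759. Their mean was 0.104, against -0.051 for other pairs, so the numbers pair those arrays unevenly. All 54 calls on single transporters passed with the block. Centred arrays gave 4 for Fk against Ra at 48 h, 1 for the Nnm set's controls and 1 for the change of the Ra effect. Quantile normalization gave 5 and 1 for the first and the last of these, and each set fitted alone 5 and 0, with 3 for Ra at 48 h and 3 for the low dose at 24 h. No filter on low values gave 3 for the low dose at 24 h and 1 for the change of the Ra effect. With the block and number 1 left out, CsA at 48 h had 2 and the low dose 1 at 24 h and 0 at 48 h. Without number 2 the low dose had 11 and 7, the high dose 10 and 14, high against low dose 1 and 2, and the change of the high dose effect 1. Without number 3 the low dose had 1 and 0.

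With 1 array left out, counts ran from 0 to 1 for CsA at 48 h, 1 to 11 for Ra at 48 h, 2 to 5 and 0 to 5 for the low dose at 24 h and 48 h, 3 to 10 and 3 to 11 for the high dose, 0 to 1 for high against low dose at 24 h, 1 to 12 for Fk against Ra at 48 h, 5 to 6 and 4 to 9 for the controls of the CsA and the Fk and Ra set, 0 to 6 for the change of the Ra effect and 1 to 6 for CsA against Ra at 48 h, and stayed at 0 for the other comparisons. Of 360 such refits of the 54 calls, 240 kept the call. Each set fitted alone lost 24 of the 54, centred arrays 13, quantile normalization 10, no filter 7 and the mean of probe sets 5, and none of these alternatives turned a direction. The median SE of a difference between groups was 0.26, and 0.36 between effects.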
